A study of Mus musculus with 8 samples.

Results

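The cytotoxic genes of natural killer (NK) cells and killer T cells were followed in whole mouse lung. The genes were 10 listed by name, all found among the 52636 Ensembl genes counted in each library: Gzma, Gzmb, Prf1 and Nkg7 of the cytotoxic granule, the receptor genes Klrb1c, Klrd1 and Ncr1, the chemokine gene Ccl5, and the transcription factor genes Eomes and Tbx21. All 10 passed the filter on low counts, as did 20546 genes in all. Lung total RNA of male wild type C57BL/6 mice was sequenced in 8 libraries, with 4 groups of 2. PBS was given to the control mice. The COPD mice model was made with porcine pancreatic elastase (PPE) in the airway at 10 weeks of age and lipopolysaccharide (LPS) from 12 weeks. Each was fed a control diet or, from 8 weeks, a diet with 2% TJ-41, the herbal medicine hochuekkito. The number of mice behind a library, the pooling of mice and the age and hour of RNA collection are not given in the sources used here, so the p-values below measure the spread between libraries, which may be technical.

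NK cells and CD8 T cells kill infected or altered cells by releasing granules. Perforin opens the membrane of the target and granzymes, which are serine proteases, then cut proteins inside it. NK cells carry inhibitory and activating receptors that read surface molecules of other cells, and the T-box factors Eomes and T-bet (Tbx21) direct their development and their effector genes. The lung holds a resident and circulating pool of NK cells.

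The libraries held 18767295 to 20888042 counts, and levels are given as CPM, counts scaled to a common library total with TMM factors of 0.935 to 1.02. The members had 33 to 1022 counts per library, against a limit of 3 counts, or 0.153 to 0.162 CPM, that a count of 0 would allow (counting error only). The COPD mice model fed the control diet had the least similar pair of libraries, with an SD of 0.798 over all genes for the log2 difference between replicates, against 0.394 to 0.469 in the other 3 groups. Replicate 2 of this group also stood apart in markers of other cells. Its summed lung epithelium markers were 65420 CPM, against 30930 in replicate 1 and 35750 to 44860 in the other libraries, and its summed B cell markers were 135 CPM against 277 in replicate 1. Values that this pair enters are given below with and without its libraries for the members, correlations, other NK cell receptors, Nfil3 and Bhlhe40. The same holds for the NK cell, T cell, red cell and heart muscle markers. Counts and medians of the other lists are from all 8 libraries only. The choice for lists and correlations was made after the data were seen.

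The members lie on 7 chromosomes, and the upstream sequence of 8 of them was at hand (RefSeq, GRCm38.p6). It is shown for 4 because the members moved together across libraries (below): Gzma and Ncr1, which had wide gaps between replicates, Gzmb, which followed the other members most closely, and Nkg7, which had the only T-box match. Each sequence is the 250 bases before the RefSeq start site, 5′ to 3′ on the strand of the gene. Capitals mark the letters of a RUNX motif, TGTGGT or its reverse complement ACCACA, and of a T-box motif, GGTGTGA or its reverse complement TCACACC.
Gzma, minus strand, chr13:113100982-113101231: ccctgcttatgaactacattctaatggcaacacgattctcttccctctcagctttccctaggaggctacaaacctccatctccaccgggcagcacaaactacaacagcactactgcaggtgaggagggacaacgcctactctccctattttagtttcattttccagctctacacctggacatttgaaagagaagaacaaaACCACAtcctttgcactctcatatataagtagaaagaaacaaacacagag
Gzmb, minus strand, chr14:56262335-56262584: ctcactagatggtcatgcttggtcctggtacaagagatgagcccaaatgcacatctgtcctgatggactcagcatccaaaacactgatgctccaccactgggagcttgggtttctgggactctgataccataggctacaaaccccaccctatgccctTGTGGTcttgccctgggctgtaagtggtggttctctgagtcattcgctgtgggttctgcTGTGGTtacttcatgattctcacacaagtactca
Nkg7, plus strand, chr7:43436888-43437137: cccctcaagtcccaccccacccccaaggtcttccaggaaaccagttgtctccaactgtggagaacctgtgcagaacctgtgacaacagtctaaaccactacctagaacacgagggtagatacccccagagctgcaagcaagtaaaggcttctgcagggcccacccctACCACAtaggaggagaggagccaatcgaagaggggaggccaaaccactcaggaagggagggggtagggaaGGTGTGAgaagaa
Ncr1, plus strand, chr7:4337465-4337714: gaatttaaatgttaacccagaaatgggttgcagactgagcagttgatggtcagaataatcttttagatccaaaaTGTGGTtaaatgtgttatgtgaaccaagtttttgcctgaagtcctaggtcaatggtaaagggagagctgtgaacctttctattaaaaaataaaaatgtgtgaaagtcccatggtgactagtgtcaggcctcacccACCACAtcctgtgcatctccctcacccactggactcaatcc

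The RUNX letters were found in 6 of the 8 members with a window of 250 bases before to 50 after the start, on either strand, against 16.8% of all 32851 RefSeq windows of that length. The 6 were Gzma, Gzmb, Prf1, Nkg7, Klrb1c and Ncr1, so every granule and receptor gene with a window held them, and the windows of Eomes and Tbx21 did not. Gzmb held them at 93 and 34 bases upstream of the start, Gzma at 50, Nkg7 at 83, and Ncr1 at 176 and 41 in the window shown. The T-box letters were found in the window of Nkg7 alone, 13 bases upstream of the start, against 3.98% of all windows. STAT letters (TTCNNNGAA) were in the windows of Gzmb and Nkg7, against 8.3% of all windows, and ETS letters (GGAAGT or ACTTCC) in those of Prf1, Klrb1c and Tbx21, against 23.8%. The motifs do not overlap each other in these windows. A match is a run of letters and not a measured binding site, and no binding was measured here.

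No member passed the test in any of the 7 comparisons made: the COPD mice model against control mice within either diet, TJ-41 feeding against the control diet in either kind of mouse, the difference between these effects, and both contrasts averaged over the other factor. A gene was called at a false discovery rate under 0.05 with a log2 fold change beyond 1 (the quasi-likelihood test of edgeR, with p-values adjusted by Benjamini-Hochberg over all genes tested). With DESeq2 the count was 0 of 10 in each as well, where in the order above it called 0.847%, 0.608%, 0.0487%, 0.0681%, 0.0827%, 1.21% and 0.0243% of all genes. For the COPD mice model against control mice, 0.122% of all genes were called on the control diet, 0.0779% on the TJ-41 diet and 0.443% over both diets, so a list of 10 with no call is near the background. For TJ-41 feeding, 0% of genes were called in control mice, 0.00487% in the COPD mice model and 0% over both. At an unadjusted p under 0.05 (edgeR), Ccl5 was the only member, in the 3 diet comparisons, and no member reached it in the other 4. Of all genes, 1.6% reached it for TJ-41 feeding in control mice, 4.1% in the COPD mice model and 2.5% over both. In the other 4 comparisons 3.27% to 10.4% of all genes did.

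**Figure D1:**
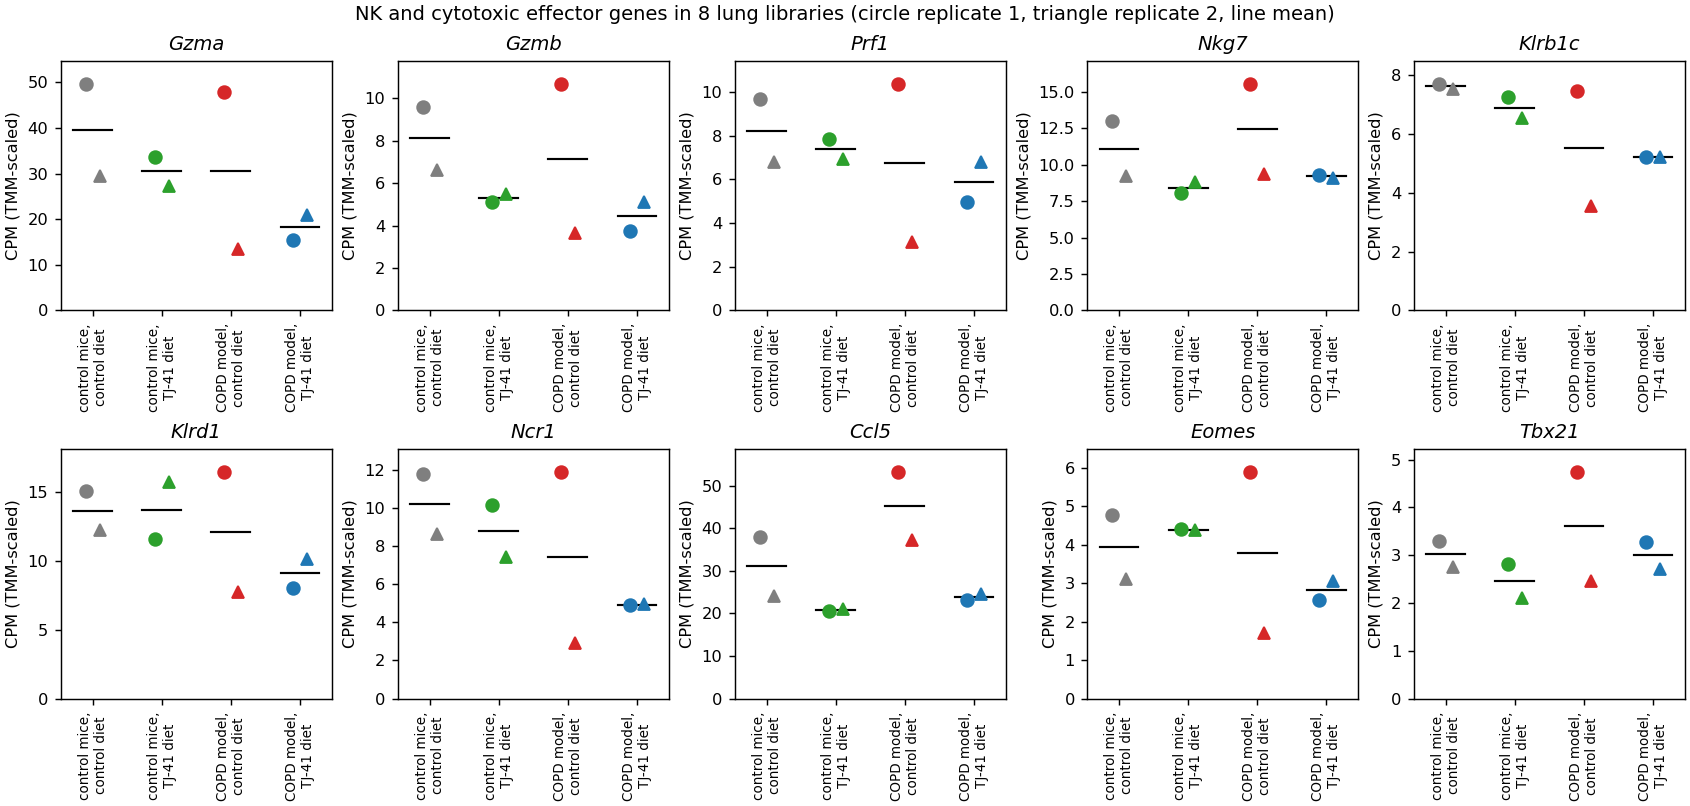
Level of each of the 10 genes (CPM on a linear axis from 0) in the 8 libraries, by group, with circles for replicate 1, triangles for replicate 2 and a line at the mean. In the COPD mice model fed the control diet replicate 1 was above replicate 2 for 10 of 10 genes, and over 2-fold above it for 7.

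The granule proteases were read from Gzma, granzyme A, and Gzmb, granzyme B. Gzma (ENSMUSG00000023132, GRCm38 chromosome 13, 113093825 to 113100981, minus strand) was at 49.7 and 29.5 CPM in control mice fed the control diet, 33.7 and 27.3 CPM on the TJ-41 diet, 47.9 and 13.4 CPM in the COPD mice model fed the control diet, and 15.6 and 21.01 CPM on the TJ-41 diet. The lowest and the second highest of the 8 libraries were thus the replicates of one group. On the TJ-41 diet both COPD libraries lay below both control libraries, at 18.3 ± 3.86 against 30.5 ± 4.49 CPM (SD, n = 2 each). The log2 fold change was -0.74 (SE 0.50, adjusted p = 0.785, edgeR) on that diet and -0.37 (SE 0.49, adjusted p = 0.928, edgeR) on the control diet.

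Gzmb (ENSMUSG00000015437, chromosome 14, 56258838 to 56262260, minus strand), whose protein sets off cell death in the target, was at 9.57 and 6.65 CPM in control mice fed the control diet and at 5.12 and 5.51 CPM on the TJ-41 diet. It was at 10.7 and 3.64 CPM in the COPD mice model fed the control diet and at 3.76 and 5.11 CPM on the TJ-41 diet. All 4 libraries of the TJ-41 diet lay below both libraries of the control mice fed the control diet, while replicate 2 of the COPD mice model fed the control diet was the lowest of all. The log2 fold change of the TJ-41 diet was -0.61 (SE 0.45) in control mice and -0.69 (SE 0.46) in the COPD mice model, with an adjusted p of 0.996 and 0.991 (edgeR).

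Prf1 (ENSMUSG00000037202, chromosome 10, 61297833 to 61304680, plus strand), which encodes perforin, was at 9.68, 6.80, 7.84 and 6.92 CPM in the 4 control libraries, the control diet first. In the COPD mice model it was at 10.4 and 3.13 CPM on the control diet and at 4.96 and 6.80 CPM on the TJ-41 diet. The range within the COPD mice model fed the control diet covered every other library. The log2 fold change of the COPD mice model was -0.29 (SE 0.47) on the control diet and -0.33 (SE 0.48) on the TJ-41 diet.

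Nkg7 (ENSMUSG00000004612, chromosome 7, 43437073 to 43438249, plus strand), a granule membrane protein of NK and cytotoxic T cells, was the granule gene with the smallest spread, its highest library 1.93-fold above its lowest. It was at 12.97 and 9.19 CPM in control mice fed the control diet, 8.04 and 8.81 CPM on the TJ-41 diet, 15.5 and 9.38 CPM in the COPD mice model fed the control diet, and 9.29 and 9.10 CPM on the TJ-41 diet. Unlike the other granule genes, it was higher in the COPD mice model than in control mice on both diets, with log2 fold changes of 0.17 (SE 0.29) and 0.13 (SE 0.29), each within its error. With the TJ-41 diet both libraries lay below both of the control diet in each kind of mouse, at log2 fold changes of -0.39 (SE 0.29) in control mice and -0.44 (SE 0.29) in the COPD mice model.

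Of the receptors, Ncr1 (ENSMUSG00000062524, chromosome 7, 4337724 to 4345164, plus strand) encodes NKp46, an activating receptor by which NK cells are recognised. It was at 11.8 and 8.62 CPM in control mice fed the control diet, 10.1 and 7.41 CPM on the TJ-41 diet, 11.9 and 2.92 CPM in the COPD mice model fed the control diet, and 4.90 and 4.96 CPM on the TJ-41 diet. On the TJ-41 diet both COPD libraries lay below both control libraries, where 27.9% of all genes did. In the COPD mice model fed the control diet, replicate 1 was the highest of all 8 libraries and replicate 2 the lowest. They differed 4.07-fold, the widest gap of the 10 genes in any group. On the TJ-41 diet the log2 fold change of the COPD mice model was -0.83 (SE 0.53, adjusted p = 0.784, edgeR), the largest fall of a member there, and on the control diet it was -0.46 (SE 0.52).

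Klrb1c (ENSMUSG00000030325, chromosome 6, 128778485 to 128789215, minus strand) encodes NK1.1, the surface antigen that marks NK cells in C57BL/6 mice. It was at 7.69 and 7.53 CPM in control mice fed the control diet and 7.22 and 6.54 CPM on the TJ-41 diet. It was at 7.46 and 3.54 CPM in the COPD mice model fed the control diet and at 5.22 and 5.22 CPM on the TJ-41 diet. Its libraries did not overlap between control mice and the COPD mice model on either diet, lower in the COPD mice model each time. Of all genes, 14.1% met this condition on the control diet and 27.9% on the TJ-41 diet. On the control diet the libraries were apart only by 7.46 against 7.53 CPM, or 143 against 145 counts. The log2 fold changes of Klrb1c were -0.47 (SE 0.33) on the control diet and -0.40 (SE 0.34) on the TJ-41 diet. Its counts are less certain than those of the other members, because 17.0% of the 50-base sequences of its transcripts also occur in transcripts of Klrb1a, Klrb1b, Klrb1-ps1 or Gm44511, and Gm44511 overlaps it on the same strand.

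Klrd1 (ENSMUSG00000030165, chromosome 6, 129591782 to 129598775, plus strand) encodes CD94, the partner of NKG2 receptors that bind a nonclassical MHC molecule. It was at 15.01 and 12.2 CPM in control mice fed the control diet, 11.6 and 15.7 CPM on the TJ-41 diet, 16.4 and 7.69 CPM in the COPD mice model fed the control diet, and 8.03 and 10.1 CPM on the TJ-41 diet. The means of the control mice were alike on both diets, at 13.6 ± 1.99 and 13.6 ± 2.90 CPM (SD, n = 2 each). On the TJ-41 diet both COPD libraries lay below both control libraries, with a log2 fold change of -0.58 (SE 0.35, adjusted p = 0.782, edgeR).

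Ccl5 (ENSMUSG00000035042, chromosome 11, 83525778 to 83530518, minus strand) encodes RANTES, a chemokine that NK cells and memory CD8 T cells release and that draws T cells, monocytes and eosinophils. It was at 38.1 and 24.1 CPM in control mice fed the control diet, 20.5 and 21.03 CPM on the TJ-41 diet, 53.3 and 37.2 CPM in the COPD mice model fed the control diet, and 23.1 and 24.7 CPM on the TJ-41 diet. Both libraries of the TJ-41 diet lay below both of the control diet in each kind of mouse, and Ccl5 was the member with the largest change in the COPD mice model, where the mean was 23.9 ± 1.12 CPM on the TJ-41 diet and 45.3 ± 11.4 CPM on the control diet (SD, n = 2 each). The log2 fold change of the TJ-41 diet was -0.58 (SE 0.25) in control mice, -0.92 (SE 0.25) in the COPD mice model and -0.75 (SE 0.18) over both. None of these passed the adjusted test, with an adjusted p of 0.996, 0.991 and 0.973 (edgeR, Benjamini-Hochberg over all genes).

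Over both kinds of mouse the adjusted p of Ccl5 ran from 0.0421 to 1 over the alternatives, the lowest without replicate 1 of the COPD mice model fed the control diet, where the log2 fold change was -0.61 and so inside the fold threshold. Ccl5 also differed from most members in the direction of the COPD effect, at a log2 fold change of 0.54 (SE 0.25, adjusted p = 0.668, edgeR) on the control diet and 0.20 (SE 0.25) on the TJ-41 diet. The difference between these effects was -0.34 (SE 0.36), within its error.

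The transcription factors were the lowest members. Eomes (ENSMUSG00000032446, chromosome 9, 118478212 to 118486132, plus strand) was at 4.76 and 3.12 CPM in control mice fed the control diet, 4.41 and 4.38 CPM on the TJ-41 diet, 5.89 and 1.69 CPM in the COPD mice model fed the control diet, and 2.56 and 3.07 CPM on the TJ-41 diet. On the TJ-41 diet both COPD libraries lay below both control libraries, where 27.9% of all genes did. The log2 fold change on that diet was -0.64 (SE 0.50). An antisense gene, Gm33460, overlaps Eomes, and since the strand setting of the counting is not given in the sources used here, reads of both cannot be told apart.

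Tbx21 (ENSMUSG00000001444, chromosome 11, 97098071 to 97115331, minus strand), which also directs type 1 helper T cells, was at 3.30, 2.75, 2.82 and 2.11 CPM in the control libraries, the control diet first. It was at 4.75 and 2.46 CPM in the COPD mice model fed the control diet and at 3.29 and 2.71 CPM on the TJ-41 diet. The groups overlapped for Tbx21 in both COPD comparisons, and its log2 fold changes were 0.25 (SE 0.37) on the control diet and 0.28 (SE 0.37) on the TJ-41 diet.

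**Figure D2:**
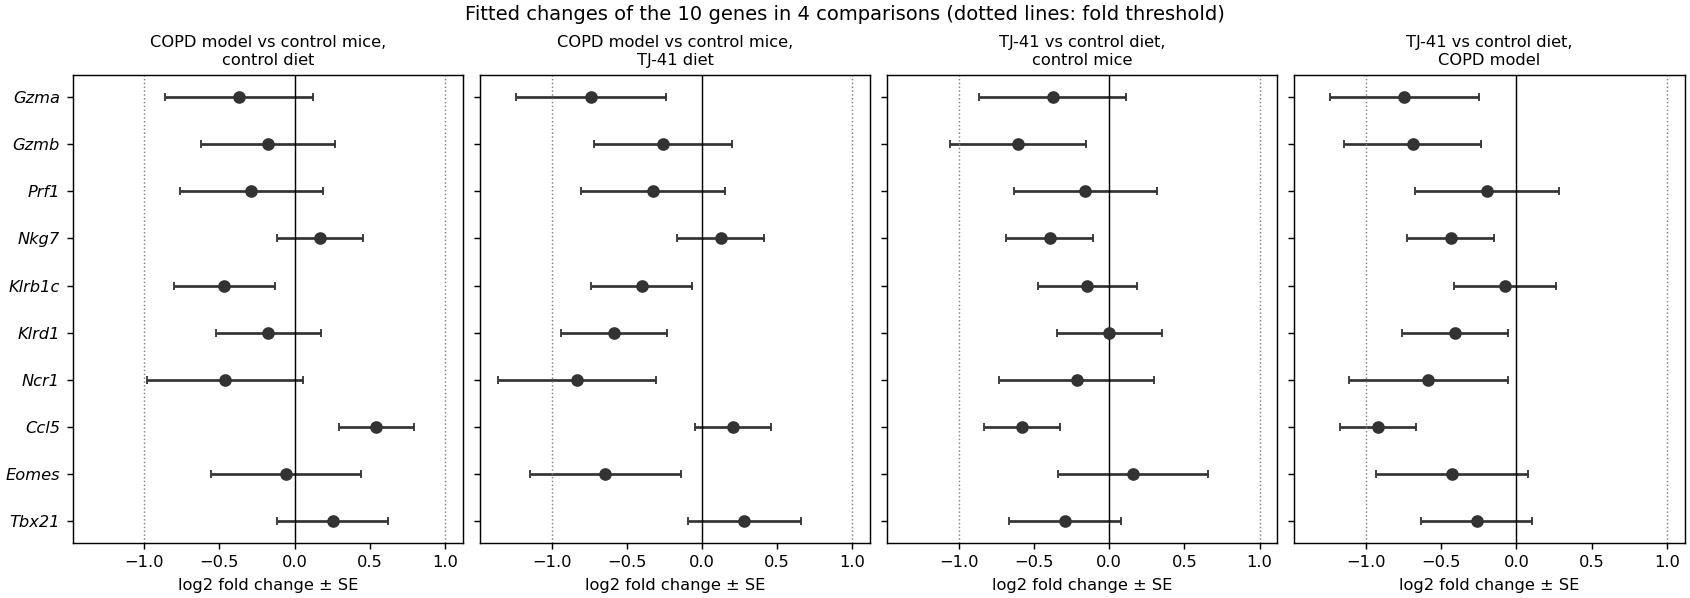
Fitted log2 fold change of each gene with its standard error in 4 comparisons, with dotted lines at the fold threshold. The estimates lie between -0.92 and 0.54, and none reaches the threshold.

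Taking the 10 genes as a list, 3 were above and 7 below control mice in the COPD mice model fed the control diet, with a median log2 fold change of -0.18 where the median over all genes was 0.0073. The libraries did not overlap for 1 member that was lower (Klrb1c) and none that was higher, where 14.1% and 13.6% of all genes met these conditions. On the TJ-41 diet 3 were again higher and 7 lower, with a median of -0.36 against -0.0016 over all genes. There 7 members were lower without overlap (all but Nkg7, Ccl5 and Tbx21) and 2 higher (Nkg7 and Ccl5), and 27.9% and 28.5% of all genes met these conditions. With 4 libraries on each side, over both diets, no member was without overlap in either direction, where 3.43% of all genes were lower and 3.35% higher, and the median was -0.33. The control diet count rests on single libraries: without replicate 1 of the control mice 6 members were higher and the median was 0.080, and without replicate 2 of them 8 were lower and it was -0.37. The COPD libraries moved it further. Without replicate 1 of the COPD mice model fed the control diet 9 members were lower and the median was -1.13. Without replicate 2 of that group 9 were higher and the median was 0.37. The TJ-41 diet median stayed between -0.53 and -0.25 without any one of its 4 libraries, with 7 members lower each time. Over both diets, leaving out replicate 1 of the COPD mice model fed the control diet gave a median of -0.73 with 9 members lower, and leaving out replicate 2 gave -0.0065 with 5 lower.

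No member passed the test for TJ-41 feeding, and the estimates were below 0 for 8 of 10 members in control mice and 10 of 10 in the COPD mice model. The median log2 fold change was -0.25 and -0.43, where the median over all genes was -0.0018 and -0.015. In the COPD mice model this direction rests on replicate 1 of the control diet: without it 8 of 10 members were above 0, all but Nkg7 and Ccl5, and the median was 0.37, while without replicate 2 all 10 were below 0 and the median was -0.96. In control mice, without replicate 1 of the control diet, 5 of 10 were below 0 and the median was -0.051. Beside the members, the red cell markers (5 of 5) and the heart muscle markers (4 of 4) were lower with TJ-41 feeding in the COPD mice model. All were lower without overlap, where 14.9% of all genes were. Their median log2 fold changes were -1.23 and -1.33. In each list 4 were at an unadjusted p under 0.05 (edgeR), where 4.1% of all genes were. Without replicate 1 these medians were -1.49 and -1.52, and without replicate 2 they were -0.81 and -1.11. Their part in the members' values was not tested. The libraries were lower without overlap for 4 members in control mice (Gzmb, Nkg7, Klrb1c and Ccl5), where 19.1% of all genes met this condition, and for 2 in the COPD mice model (Nkg7 and Ccl5), where 14.9% did. None was higher without overlap, where 19.1% and 14.1% of all genes were, and over both kinds of mouse none was apart in either direction, where 0.73% of all genes were lower and 0.647% higher. The 2 diet comparisons share no library with each other, but each shares its groups with the COPD comparisons. The difference of the COPD effect between the diets ran from -0.59 for Eomes to 0.069 for Klrb1c, with 0 members called where 0% of all genes were called and a smallest adjusted p of 0.999 (edgeR).

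The libraries of the COPD mice model fed the control diet were far apart for most members. Replicate 1 was the highest of all 8 libraries for 8 of 10 members and replicate 2 the lowest for 7, with both holding for 5 (Gzmb, Prf1, Klrd1, Ncr1 and Eomes), and the median log2 gap between them was 1.31, against -0.026 over all genes. Replicate 1 was over 2-fold above replicate 2 for 7 members, and 9.7% of all genes met this condition. Markers of other blood cells were also higher in replicate 1, with the neutrophil marker sum at 160 against 47.0 CPM and the CD8 T cell marker sum at 27.6 against 11.2 CPM, while the T cell marker sum was 118 against 123 CPM and the red cell marker sum 1941 against 3755 CPM. Their part in the gap was not tested.

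Without replicate 1, 5 members were called lower in the COPD mice model fed the control diet, in a fit that called 6.28% of all genes and that takes the lone library to vary like the other groups. The log2 fold changes and adjusted p values of this edgeR fit were -1.56 and 0.0157 for Gzma, -1.16 and 0.0438 for Gzmb, -1.40 and 0.0243 for Prf1, -1.11 and 0.0230 for Klrb1c, and -1.80 and 0.0103 for Ncr1. Without replicate 2, no member was called, 0.659% of all genes were, and 9 of 10 members were higher in the COPD mice model, Klrb1c being at -0.027. Over both diets and without replicate 1, Gzma (log2 fold change -1.15, adjusted p = 0.0057, edgeR) and Ncr1 (-1.31, adjusted p = 0.00325, edgeR) were called, where 4.08% of all genes were, and without replicate 2 no member was, where 1.01% were. For TJ-41 feeding in the COPD mice model no member was called without either replicate, where 3.41% of all genes were called without replicate 1 and 0.0612% without replicate 2. With 2 libraries in the group, the data do not show which of them is nearer to its mean level.

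**Figure D3:**
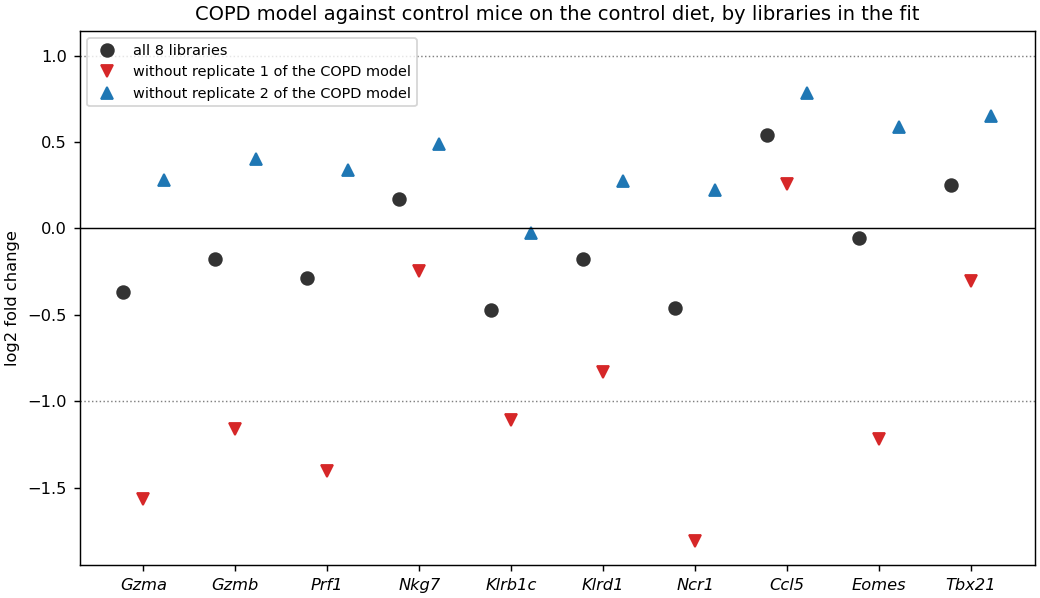
Log2 fold change of the COPD mice model against control mice fed the control diet, fitted with all 8 libraries (circles), without replicate 1 (downward triangles) and without replicate 2 (upward triangles) of the COPD mice model. Without replicate 1, 9 of 10 genes are below 0, and without replicate 2, 9 of 10 are above 0.

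The members rose and fell together over the libraries. Pearson's r of log2 CPM over the 8 libraries ran from -0.014 to 0.97 over the 45 pairs, with a median of 0.81, and from 0.28 to 0.97 over the 36 pairs without Ccl5. Gzmb followed the mean of the other members most closely (r = 0.96), then Gzma (0.95), Prf1 (0.90), Ncr1 (0.89) and Eomes (0.88). Tbx21 (0.61) and Ccl5 (0.42) followed it least. The receptor genes Klrb1c and Ncr1 were the closest pair (0.97). Nkg7, Ccl5 and Tbx21 were the 3 members with estimates above 0 in the COPD mice model on both diets. They were closer to each other, at 0.90 for Nkg7 and Ccl5, 0.81 for Nkg7 and Tbx21 and 0.68 for Ccl5 and Tbx21. Ccl5 was at -0.014 with Klrb1c, 0.17 with Ncr1 and 0.25 with Klrd1. All points share their libraries, and the gap between the COPD libraries on the control diet enters every pair, so these values are a description. Over the 6 libraries without that pair the median over the 45 pairs was 0.71 and the lowest -0.48. Klrb1c and Ncr1 stayed at 0.96 and Nkg7 and Ccl5 at 0.98, while Nkg7 and Tbx21 were at 0.52, Ccl5 and Tbx21 at 0.57 and Ccl5 and Klrb1c at 0.32.

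**Figure D4:**
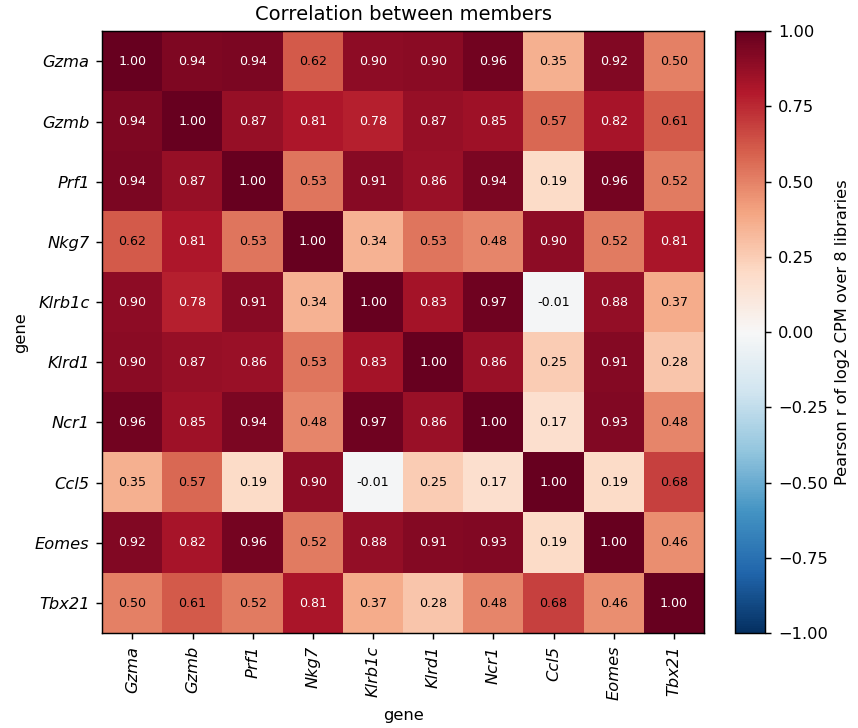
Pearson's r of log2 CPM between each pair of the 10 genes over the 8 libraries, on a colour scale from -1 to 1. The lowest values are in the row and column of Ccl5.

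Outside the list, the 10 genes whose log2 CPM was most like the mean of the members over the 8 libraries were Tfam (r = 0.98), which encodes a mitochondrial transcription factor, Nbn (0.98), of DNA repair, Trim30a (0.97), Gimap4 and Gimap6 (0.95 each), which encode GTPases of lymphocytes, Fasl (0.95), the death ligand of killer cells, Lcn4 (0.95) and the pseudogenes Gm18852, Gm7200 and Gm15753. Fasl was at 3.70 and 1.28 CPM in the COPD libraries on the control diet, and Lcn4 averaged only 0.515 CPM. Over the 6 libraries without that pair r was 0.95 for Tfam and Nbn, 0.93 for Fasl and 0.86 for Lcn4.

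Per kilobase of exonic length, which allows genes to be compared, the mean level in control mice fed the control diet ran from 39.4 CPM per kb for Gzma through 32.4 for Ccl5, 12.1 for Nkg7, 10.6 for Klrd1, 6.62 for Ncr1, 5.65 for Gzmb, 3.19 for Prf1, 2.57 for Klrb1c and 1.22 for Tbx21 to 0.948 for Eomes. The libraries of neighbours overlapped between Gzma and Ccl5, Nkg7 and Klrd1, Ncr1 and Gzmb, and Tbx21 and Eomes, and were apart between the others. Ccl5 came first in the COPD mice model, at 47.1 CPM per kb on the control diet, where its libraries overlapped those of Gzma, and at 24.9 on the TJ-41 diet, where they did not. Gzma was first in control mice on both diets.

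Other genes of the killer cell programme were counted by lists. Of the 32 tested genes among other NK cell receptors, 0 were called in any comparison, where the shares called over all genes are those given above. On the TJ-41 diet 7 were above and 25 below control mice in the COPD mice model, with a median log2 fold change of -0.28, and 14 were lower without overlap, where 27.9% of all genes were. On the control diet 13 were higher and 19 lower, with a median of -0.063. At an unadjusted p under 0.05 there were 5 genes on the TJ-41 diet and 2 on the control diet, where 6.56% and 7.70% of all genes were, shares that hold for the lists below as well. For TJ-41 feeding 25 of the 32 were lower in the COPD mice model, with a median of -0.50, and 14 in control mice, with a median of 0.017. These counts also turned with the pair: on the control diet 27 were lower without replicate 1 (median -1.05, 8 called lower and 1 higher) and 6 without replicate 2 (median 0.57, 1 called higher), and for TJ-41 feeding in the COPD mice model 5 were lower without replicate 1 (median 0.53, 3 called higher) and 29 without replicate 2 (median -1.001, 0 called). Klrk1, which encodes the activating receptor NKG2D, was at 19.6, 15.9, 16.6 and 19.3 CPM in the control libraries, at 23.3 and 8.92 CPM in the COPD mice model fed the control diet and at 11.3 and 11.7 CPM on the TJ-41 diet. Klre1 was at 7.06, 6.13, 5.33 and 7.84 CPM, then 9.60 and 2.20, then 2.82 and 3.73 CPM in the same order. In both, the replicates of the COPD mice model fed the control diet were the highest and the lowest of the 8 libraries. On the TJ-41 diet both COPD libraries lay below both control libraries, where 27.9% of all genes did. The Klra genes of this list are close paralogs, so their counts are uncertain. The most abundant genes of the list per kilobase were Fcgr3, an Fc receptor that myeloid cells carry too, at 35.8 to 60.9 CPM, and Itga2, at 35.9 to 67.8 CPM.

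Of 22 other cytotoxic granule and death ligand genes 17 were tested, and 0 were called with all 8 libraries in the fit. At an unadjusted p under 0.05 (edgeR) were 1 on the control diet and 0 on the TJ-41 diet. The median log2 fold change was -0.052 on the control diet and -0.13 on the TJ-41 diet. The granzyme genes Gzmd, Gzme, Gzmf and Gzmg had no count in any library, which allows up to 0.162 CPM. Gzmk was at 2.09 CPM in replicate 1 of the COPD mice model fed the control diet and at most 0.541 CPM in the other libraries. Ifng, the cytokine by which NK and T cells activate macrophages, was at most 1.04 CPM in every library. The most abundant genes of this list per kilobase were Lamp1 (730 to 923 CPM) and Ctsc (370 to 463 CPM), which encode lysosomal proteins of many cell types.

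Of 21 signalling adapters and cytokine receptors of NK cells, all tested, 0 were called with all 8 libraries in the fit. For the COPD mice model 2 were at an unadjusted p under 0.05 (edgeR) on either diet. On the TJ-41 diet 12 were above and 9 below control mice in the COPD mice model. Tyrobp and Fcer1g, adapters that macrophages share, were the most abundant per kilobase, at 56.3 to 127 and 40.4 to 97.9 CPM. Il2rb, the receptor chain for interleukin 2 and interleukin 15, was at 12.2 to 18.6 CPM, with log2 fold changes of -0.057 (SE 0.24) on the control diet and -0.056 (SE 0.25) on the TJ-41 diet.

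Of 15 transcription factors of NK and cytotoxic T cells, 2 were called with all 8 libraries in the fit, both for the COPD effect averaged over the diets. Nfil3, which NK cell development needs, was at 15.9, 15.9, 14.96 and 17.6 CPM in the control libraries and at 6.26, 8.15, 5.43 and 5.57 CPM in the COPD libraries, so that the groups did not overlap. It fell by 1.35 on the log2 scale (SE 0.16, adjusted p = 0.00779, edgeR). Bhlhe40, a repressor used by many cell types, was at 59.0 to 84.0 CPM in control libraries and at 146 to 203 CPM in COPD libraries. It rose by 1.24 on the log2 scale (SE 0.14, adjusted p = 0.00578, edgeR). Both genes stayed called without either library of the COPD mice model fed the control diet, Nfil3 at -1.26 and -1.45 and Bhlhe40 at 1.36 and 1.13 on the log2 scale (without replicates 1 and 2).

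Both genes are also tied to the circadian clock, and the summed level of 8 clock markers was 349 to 469 CPM in the control libraries and 1117 to 1250 CPM in the COPD libraries, with 7 of the 8 called over both diets, Dbp, Tef, Nr1d1, Per2 and Per3 higher and Arntl and Npas2 lower. The part of the clock genes in the change of Nfil3 and Bhlhe40 was not tested. The most abundant factors of the list per kilobase were Hopx, which lung epithelium also uses, at 376 to 675 CPM, and Ets1, at 284 to 446 CPM.

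Among signals to these cells, 9 cytokines that act on NK cells and 15 ligands of NK cell receptors were tested. So were 6 CCL5 receptors and chemokines of the same receptors. With all 8 libraries in the fit, 0 were called for the COPD mice model on either diet. At an unadjusted p under 0.05 (edgeR) were 3 cytokines, 1 CCL5 gene and 2 ligands on the control diet. On the TJ-41 diet these counts were 0, 1 and 1. The cytokines had a median log2 fold change of 0.59 on the control diet, 5 higher and 4 lower. There 5 were higher without overlap, where 13.6% of all genes were. On the TJ-41 diet the median was 0.039, again with 5 higher and 4 lower. Per kilobase the most abundant were Il18, which rouses interferon production by NK cells, at 13.8 to 23.3 CPM, and Cx3cl1, a chemokine for NK cells, at 38.2 to 61.5 CPM. Ifna4 had no count, and Il21 and Ifnb1 at most 3 counts, in any library. Of the receptors of CCL5, Ccr1 was at 7.18 CPM in replicate 2 of the COPD mice model fed the control diet and at 12.1 to 16.8 CPM in the others, and the decoy receptor Ackr2 was at 45.3 to 63.5 CPM. The MHC class I genes H2-D1 and B2m were at 1199 and 1917 CPM and at 1215 and 1546 CPM in replicates 1 and 2 of the COPD mice model fed the control diet. They ran against the members within this pair, as did H2-K1 (884 and 1414 CPM) and H2-T23 (154 and 208 CPM). H2-Q7 (257 and 206 CPM) and H2-Q10 (12.7 and 7.84 CPM) ran with the members. A link to the members was not tested.

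Cell type markers were read by their sums. The 9 NK cell markers (Gzma, Klrb1c, Ncr1, Eomes, Klre1, Klra4, Klra8, Klra9 and Klri2), 4 of which are members, were all detected. They summed to 107, 71.3, 82.8 and 79.1 CPM in the control libraries, to 113 and 30.5 CPM in the COPD mice model fed the control diet and to 40.9 and 49.6 CPM on the TJ-41 diet. All 9 were lower in the COPD mice model fed the TJ-41 diet without overlap, where 27.9% of all genes were. Their median log2 fold change was -0.83, with 0 called and 1 at an unadjusted p under 0.05 (edgeR). Other NK genes did not all follow. There 3 members were higher and 7 lower. Of the 32 other NK cell receptors, which include the Klr markers other than Klrb1c, 7 were higher and 25 lower, at a median of -0.28. Klra4, Klra8 and Klra9 are close paralogs with uncertain counts. In bulk lung, fewer cells of a type and less RNA per cell cannot be told apart.

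The 8 T cell markers, by contrast, summed to 71.4 to 81.5 CPM in the control libraries and to 84.9 to 123 CPM in the COPD libraries, with 8 of 8 higher on the control diet (median log2 fold change 0.77) and 7 of 8 on the TJ-41 diet (0.32). None was called, and 5 and 0 were at an unadjusted p under 0.05, where 7.70% and 6.56% of all genes were. On the control diet 7 of 8 were higher without replicate 1 of the COPD mice model (median 0.89, 2 called) and 8 of 8 without replicate 2 (median 0.63, 0 called), whereas the 9 NK cell markers were all lower without replicate 1 (median -1.57, 7 called) and 8 of 9 higher without replicate 2 (median 0.54, 0 called). Cd3e, a chain of the T cell receptor complex, was at 7.11, 8.46, 6.81 and 7.19 CPM in control libraries and at 11.5, 10.6, 10.7 and 7.82 CPM in COPD libraries. Cd4 was at 8.36 to 12.04 CPM in control and 11.6 to 20.97 CPM in COPD libraries. Cd8a, of killer T cells, was at 8.26 to 11.8 CPM in control libraries, at 18.8 and 7.08 CPM in the COPD mice model fed the control diet and at 9.60 and 8.85 CPM on the TJ-41 diet.

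The NK cell sum divided by the T cell sum was 1.40, 0.999, 1.02 and 1.02 in the control libraries, 0.957 and 0.249 in the COPD mice model fed the control diet and 0.360 and 0.585 on the TJ-41 diet. All 4 COPD libraries thus lay below all 4 control libraries, although replicate 1 on the control diet did so by only 0.957 against 0.999. The B cell markers, which share the blood and lymphoid source, summed to 259 to 278 CPM in control libraries and to 277, 135, 181 and 161 CPM in COPD libraries. Markers of the thymus were at most 1.05 CPM in sum, with Rag2 at 0. With all 8 libraries in the fit, and apart from the clock genes, the plasma cell marker Jchain was the only marker of any list that was called, higher in the COPD mice model.

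**Figure D5:**
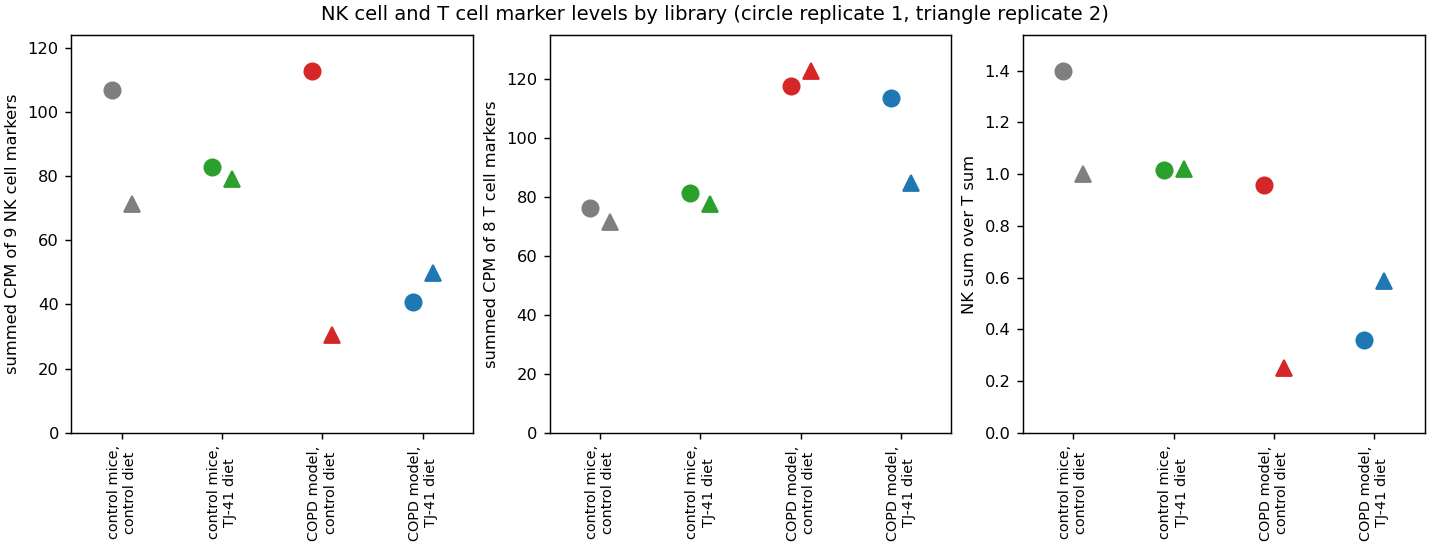
Summed CPM of the 9 NK cell markers, summed CPM of the 8 T cell markers, and their ratio in each library by group (circles replicate 1, triangles replicate 2). The ratio is 0.999 or more in the 4 control libraries and 0.957 or less in the 4 COPD libraries. In the COPD library at 0.957 the NK cell sum is the highest of the 8.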

How the data were processed

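The authors deposited whole-number read counts per Ensembl gene for each of 8 lung libraries, without normalization. The submitters' notes name HISAT2, edgeR and the build mm10 (GRCm38), and the study's methods name CLC Genomics Workbench. The counting program, annotation release and strand setting are not given in the sources used here. Names and positions came from GENCODE M21, which held 52489 of the 52636 identifiers.

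Counts were scaled by TMM and fitted with edgeR 4.0.16 in R 4.3.3 (quasi-likelihood test, group means of all 8 libraries, filterByExpr at 10 counts and a total of 15). The standard error is the fold change divided by the root of F. DESeq2 1.42.0, other scalings, no filter, only the groups compared, a replicate block and leaving out each library were alternatives; lists and correlations without the COPD control-diet libraries were added after the data were seen. Replicate differences correlated at -0.234 to 0.108 between groups. The labels give only a replicate number, so whether libraries of the same number are paired is not known. The steps were tested on simulated data.

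The members and lists were chosen with earlier results of these data known. Named beside the members are called list genes, the 2 most abundant genes per kb of each list, 8 reference genes (Ifng, Gzmk, Klrk1, Klre1, Il2rb, Cd3e, Cd8a and Cd4) and the 10 genes most like the members.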

Additional observations from a re-analysis of the deposited data

How the results depend on the processing

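With all libraries in the fit, 386 of the 390 log2 fold changes of members under the alternatives (DESeq2, scaling by library size alone or by relative log expression, every gene with a count, only the groups compared, a replicate block) kept their sign and stayed uncalled. The 4 that changed sign were all near 0: Klrd1 for the TJ-41 diet in control mice (0.0018) became -0.017 with library size alone and -0.0072 with only the groups compared, and, for the difference of the COPD effect between diets, Nkg7 (-0.044) became 0.0040 with library size alone and Prf1 (-0.04) became 0.085 with the replicate block. No member was called with the replicate block in any comparison, its smallest adjusted p was 0.571 and it moved a log2 fold change by at most 0.211. The libraries share only a number, so whether the block is a pairing is not known.

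Leaving out 1 library at a time kept sign and call for 336 of 400 values, turned the sign of 57 and brought 7 past the threshold, all 7 without replicate 1 of the COPD mice model fed the control diet. The number of members called then ran from 0 to 5 on the control diet and from 0 to 2 over both diets, and was 0 in the other comparisons. In all settings with 1 library left out other than those given with the results above, 0.0% to 1.07% of all genes were called. The sign turned, or a call was gained, within these ranges of log2 fold changes. For the COPD mice model fed the control diet, the ranges were -1.56 to 0.28 for Gzma, -1.16 to 0.40 for Gzmb, -1.40 to 0.34 for Prf1, -0.24 to 0.49 for Nkg7, -1.11 to -0.027 for Klrb1c, -0.83 to 0.27 for Klrd1, -1.80 to 0.22 for Ncr1, -1.22 to 0.58 for Eomes and -0.30 to 0.65 for Tbx21. For the TJ-41 diet in control mice, they were -0.71 to 0.046 for Gzma, -0.40 to 0.12 for Prf1, -0.23 to 0.19 for Klrd1, -0.47 to 0.025 for Ncr1 and -0.12 to 0.49 for Eomes. In the COPD mice model, for TJ-41 feeding, they were -1.39 to 0.45 for Gzma, -1.27 to 0.29 for Gzmb, -0.82 to 0.91 for Prf1, -0.52 to 0.56 for Klrb1c, -0.86 to 0.24 for Klrd1, -1.27 to 0.76 for Ncr1, -1.07 to 0.73 for Eomes and -0.66 to 0.29 for Tbx21. For the difference of the COPD effect between the diets, they were -1.004 to 0.83 for Gzma, -0.65 to 0.90 for Gzmb, -0.65 to 1.08 for Prf1, -0.35 to 0.38 for Nkg7, -0.36 to 0.71 for Klrb1c, -0.84 to 0.25 for Klrd1, -1.05 to 0.98 for Ncr1, -1.21 to 0.58 for Eomes and -0.36 to 0.59 for Tbx21. For the COPD mice model over both diets, they were -1.15 to -0.22 for Gzma, -0.71 to 0.077 for Gzmb, -0.86 to 0.0098 for Prf1, -0.056 to 0.31 for Nkg7, -1.31 to -0.30 for Ncr1 and -0.0070 to 0.47 for Tbx21. For the TJ-41 diet over both kinds of mouse, they were -0.89 to 0.030 for Gzma, -0.49 to 0.37 for Prf1, -0.34 to 0.20 for Klrb1c, -0.43 to 0.12 for Klrd1, -0.75 to 0.27 for Ncr1 and -0.46 to 0.44 for Eomes. 

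In the 4 comparisons of 2 groups the members' standard errors were 0.25 to 0.53 on the log2 scale, and all their estimates lay between -0.92 and 0.54, inside the fold threshold, so none could be called there whatever its error. The members had at least 33 counts in every library, and the COPD libraries on the control diet differed up to 4.07-fold. The cause of that gap was not tested.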
